A study of Homo sapiens and Mus musculus with 20 samples.

Results

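The DNA-binding protein Satb1 was followed here at the chromatin sites that were called with a pair of truncated constructs and not with the full-length protein. A site was a ChIP-seq peak of the N-C1 construct that shared at least 1 bp with a peak of the ∆HD construct and no base with a peak of full-length Satb1. Of 62856 N-C1 peaks, 21985 (35%) met this rule. For comparison, 20038 N-C1 peaks (31.9%) were found in all 3 lists and 19151 (30.5%) in the N-C1 list alone. The remaining 1682 overlapped a full-length peak and no ∆HD peak. Counted from the other side, 21730 ∆HD peaks overlapped an N-C1 peak and no full-length peak.

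All lists came from MCF10A, a human mammary epithelial cell line that has no Satb1 of its own. Each construct was fused to eGFP, expressed from a cumate-inducible lentiviral vector in cells sorted for the same fluorescence, and precipitated with an antibody to GFP. N-C1 holds the N-terminal dimerization domain and the first CUT domain, and ∆HD lacks the homeodomain but keeps both CUT domains. Full-length Satb1 was also precipitated from cells treated for 2 h with camptothecin, an inhibitor of topoisomerase I, or with ICRF-193, an inhibitor of topoisomerase II. Open chromatin was mapped by ATAC-seq in native MCF10A cells and in MCF10A cells expressing full-length Satb1. Each condition had 1 peak list and each construct 1 sorted population, so no replicate spread was available, and no test between lists was made. Expression was not measured in these lists, so the identity of the cells was not checked.

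Satb1 folds chromatin in thymocytes and other cells and binds A/T-rich stretches that unpair readily under superhelical stress, known as base unpairing regions. Its N-terminal domain forms dimers and higher oligomers, its CUT domains contact the DNA, and its homeodomain lies at the C-terminal side of these. Topoisomerases I and II relax the supercoils that transcription and replication leave behind. The inhibitors therefore alter the torsional state of the genome.

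The sequences of 5 sites are given to show what the DNA at these peaks looked like. Each is the leading site of its kind, and each shows the central 200 bp of the N-C1 peak on the plus strand of hg19. Capitals mark exact matches to the binding consensus, which takes the form CTAATAA or on the opposite strand TTATTAG, the form CTAATAG or CTATTAG, the form CTATTAA or TTAATAG, and the form TTAATAA or TTATTAA.
SLCO4C1 intron, largest N-C1 fold enrichment, chr5:101615000-101615199: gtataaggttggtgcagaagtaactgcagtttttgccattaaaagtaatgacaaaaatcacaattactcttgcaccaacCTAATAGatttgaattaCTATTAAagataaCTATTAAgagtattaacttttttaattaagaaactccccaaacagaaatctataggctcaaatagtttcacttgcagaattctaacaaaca
SGCD intron, high in both lists, chr5:155399280-155399479: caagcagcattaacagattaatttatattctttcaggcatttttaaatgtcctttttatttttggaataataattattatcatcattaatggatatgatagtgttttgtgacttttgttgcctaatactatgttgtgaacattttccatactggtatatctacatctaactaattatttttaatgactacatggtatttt
ADARB2 intron, most consensus matches, chr10:1447978-1448177: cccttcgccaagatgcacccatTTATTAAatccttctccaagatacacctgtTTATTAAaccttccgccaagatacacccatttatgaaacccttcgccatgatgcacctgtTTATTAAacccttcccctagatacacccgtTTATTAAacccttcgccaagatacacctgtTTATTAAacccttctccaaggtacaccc
SKA2 promoter, chr17:57230063-57230262: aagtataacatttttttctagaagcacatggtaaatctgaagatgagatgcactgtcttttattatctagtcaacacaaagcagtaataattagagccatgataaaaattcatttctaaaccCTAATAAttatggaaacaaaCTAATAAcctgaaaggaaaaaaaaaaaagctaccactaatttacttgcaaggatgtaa
nearest start DTHD1, accessible, chr4:36364959-36365158: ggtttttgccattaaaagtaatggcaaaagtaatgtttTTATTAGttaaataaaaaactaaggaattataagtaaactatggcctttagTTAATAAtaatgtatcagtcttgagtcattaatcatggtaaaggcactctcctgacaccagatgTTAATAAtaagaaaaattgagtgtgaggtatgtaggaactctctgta

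The site in an intron of SLCO4C1, an organic anion transporter gene, had a fold enrichment of 16.6 with N-C1, the largest of all members, and of 10.1 with ∆HD. It held 3 consensus matches, 70.5% A/T, and it was 128 kb from the nearest full-length peak. It was recovered in both drug lists, at a fold enrichment of 8.45 with camptothecin and 10.7 with ICRF-193. The site in an intron of SGCD, the gene of delta-sarcoglycan, had its only match outside the 200 bp shown. Its fold enrichment was 12.5 with N-C1 and 14.8 with ∆HD. The ADARB2 site held 9 matches in 400 bp, the most of any member, in a short repeat that is visible in the sequence. Its A/T content was only 57%, its N-C1 fold enrichment was 5.98, and it was in neither drug list. It thus combined many matches with a low A/T content.

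Fold enrichment is the authors' ratio of the read pileup to the local background. Classes of peaks were compared by it only within the same list. Where values of several lists are given for a site, the depth of each list is unknown, so their difference is not a measure of binding. A value from a list other than N-C1 is the largest fold enrichment among its peaks that overlapped the site by at least 1 bp. The summit of such a peak can lie outside the site. The members were chosen by presence in these lists, so the values are a description. Members had a median N-C1 fold enrichment of 5.70 (lowest 1.89, highest 16.6), against 11.1 for peaks in all 3 lists and 4.83 for peaks in the N-C1 list alone. In the ∆HD list the median was 5.90 at members (lowest 2.27, highest 48.7) and 9.91 at peaks of all 3 lists. The members were therefore mostly sites of modest enrichment, and few of them belonged to the strong end of the N-C1 list. Of the members, 1208 were in the top quartile of N-C1 fold enrichment, which began at 8.82 and held 13648 peaks of all 3 lists. Across members the fold enrichments of the 2 constructs had a Spearman correlation of 0.424 (n = 21985), compared with 0.673 across peaks of all 3 lists. These points share the genome sequence and, for each list, 1 library. The summits of the 2 constructs were a median of 33.0 bp apart, and 67.4% of members had them within 50 bp.

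The edges of the rule touched few sites. Only 18 members shared under 50 bp with a ∆HD peak, at a median N-C1 fold enrichment of 4.39, while the median shared length was 307 bp. Just outside the rule, 1 N-C1 peak in all 3 lists shared under 50 bp with a full-length peak, with a fold enrichment of 4.48. The smallest shared length was 1 bp, in an intron of PIGK (chr1:77664093-77664456), where the N-C1 fold enrichment was 5.0 and the nearest full-length peak 97 bp away. The ∆HD value there, 10.9, is that of a peak sharing only this 1 bp. The member nearest to a full-length peak lay 30 bp from it (chr1:188750686-188751011). The farthest lay 2068 kb away, in an intron of ABR (chr17:988630-988884). In all, 668 members (3.04%) had a full-length peak within 1 kb and 22.5% within 10 kb, and the median distance was 31142 bp. Absence from the full-length list does not show absence of binding, because the exact depth of that list is unknown and a weak signal below the threshold is not listed.

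The other members with the largest N-C1 fold enrichments were spread over the genome. The value was 16.5 at a site 10.6 kb from the start of RBBP8, a DNA end resection gene (chr18:20607150-20607553), which held no consensus match and was in the ICRF-193 list only. It was 14.9 at an intergenic site on chromosome 13 whose nearest start, SLITRK5, was 1177 kb away (chr13:89501360-89501792), and this site was in both drug lists. It was 14.2 at a site 39.1 kb from NAP1L3, a nucleosome assembly protein gene (chrX:92889258-92889736). Ranked by the poorer of their positions in both lists, the leading members included an intron of SMARCC1, which encodes a subunit of the BAF remodelling complex (chr3:47730948-47731334, 14.0 with N-C1 and 13.1 with ∆HD). A site 946 kb from CBLN2, a synapse organizer gene, had 12.6 and 13.1 (chr18:69264962-69265370). The 2 other leading members lay on chromosome 9 (chr9:42086531-42086973, 12.3 and 14.1, and chr9:46620102-46620541, 11.9 and 14.4), and their central 50 bases recurred in another N-C1 peak. Reads cannot be placed with certainty between such copies. Copies of this kind were uncommon: 441 members (2.01%) had central 50 bases that recurred in another N-C1 peak, 104 of them on chromosome 9.

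Sites of both constructs were A/T rich against their surroundings. The central 200 bp held 70.1% A/T (SD 4.32 across members) and the flanks, taken between 1000 and 2000 bp from the midpoint, 62.7% (SD 4.46), with 59.1% for the genome. The center exceeded its own flanks at 91.5% of members (95% interval 91.1 to 91.8), beside 92.8% of all N-C1 peaks. Peaks of all 3 lists held 71.5% (SD 4.84) and peaks of the N-C1 list alone 70.8% (SD 3.91). The means of the 3 classes differed by less than 1 SD across peaks. Intervals on shares are exact (Clopper-Pearson). They describe counting error alone, and neighbouring sites are not independent. The profile of A/T content rose from 62.6% at 1975 bp to 71.2% in the 50 bp bins beside the midpoint, where peaks of all 3 lists reached 73.1%.

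**Figure D1:**
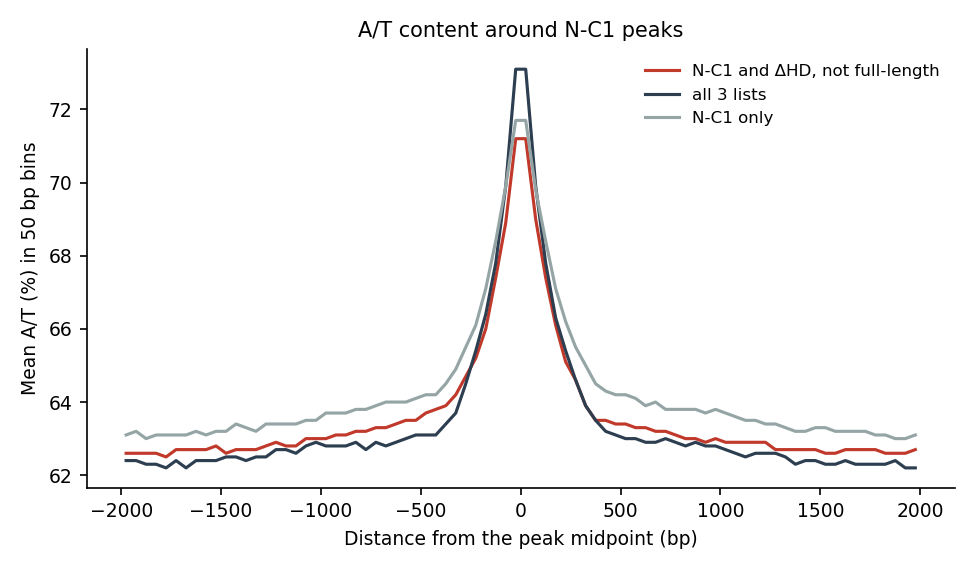
Mean A/T content (%) in 50 bp bins by distance from the midpoint of N-C1 peaks (bp), for sites found with N-C1 and ∆HD but not full-length Satb1, peaks of all 3 lists and peaks of the N-C1 list alone. The first class reaches 71.2% beside the midpoint, against 73.1% in all 3 lists, and all 3 curves fall to between 62 and 64% at the edges.

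Exact consensus matches were counted in 400 bp at the midpoint, both strands and overlapping matches included. At least 1 match was present in 93.6% of members (95% interval 93.2 to 93.9), beside 94.5% of all N-C1 peaks, 96.5% of peaks in all 3 lists and 25.8% of 400 bp windows tiled along the genome. The members thus carried the consensus about as often as the N-C1 list as a whole, but they carried fewer copies of it than sites shared with the full-length protein. The mean was 2.03 matches (SD 1.07) at members, 2.71 (SD 1.47) at peaks of all 3 lists and 1.91 (SD 1.01) at peaks of the N-C1 list alone. At least 4 matches were present at 8.30% of members (95% interval 7.94 to 8.67) and at 23.9% of peaks in all 3 lists (23.3 to 24.5). Only 4 members held 7 or more, against 273 peaks of all 3 lists. The nearest match lay a median of 19.0 bp from the N-C1 summit at members and 12.0 bp at peaks of all 3 lists.

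The N-C1 fold enrichment at members was nearly flat against the number of matches. The mean N-C1 value was 5.75 (SE 0.0436 across members) without a match, 6.01 (SE 0.0173) with 2 and 6.30 (SE 0.0987) with 5. Among peaks of all 3 lists it was 14.3 (SE 0.423) without a match, 12.4 (SE 0.153) with 1 match, 12.5 (SE 0.101) with 2 and 14.0 (SE 0.123) with 3, and then went to 20.6 (SE 0.450) with 5 and 34.7 (SE 0.844) with 6 or more. The Spearman correlation of match number with N-C1 fold enrichment was 0.0619 across members (n = 21985) and 0.201 across peaks of all 3 lists (n = 20038). Most peaks in the top quartile of N-C1 fold enrichment were in all 3 lists, so members covered a narrower range of values. The mean ∆HD value at members was 6.46 (SE 0.0724) without a match, 6.14 (SE 0.0226) with 1 and 6.92 (SE 0.128) with 5. Its Spearman correlation with match number was 0.0463 across members.

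**Figure D2:**
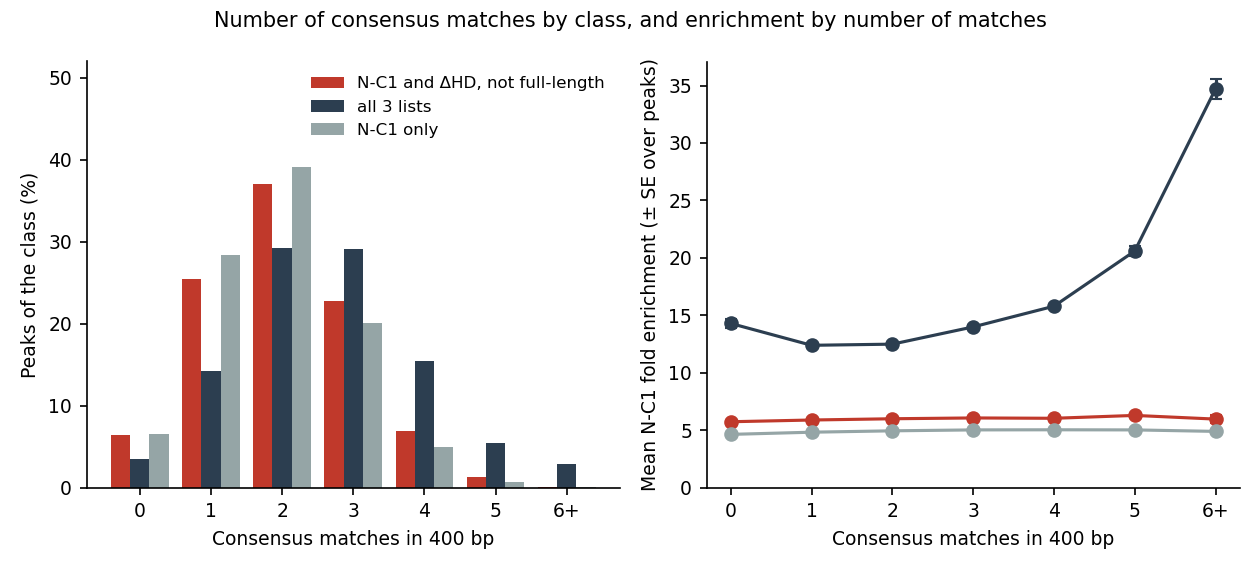
Left, share of peaks (%) by number of consensus matches in 400 bp, for sites of N-C1 and ∆HD but not full-length Satb1, peaks of all 3 lists and peaks of the N-C1 list alone; right, mean N-C1 fold enrichment (± SE over peaks) by the same number. The first class peaks at 2 matches (37%) and stays between 5.75 and 6.30, while peaks of all 3 lists reach 34.7 with 6 or more matches.

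Of 44528 matches at members, 43.8% read TTAATAA, 29.0% CTAATAA, 16.8% CTATTAA and 10.3% CTAATAG, each counted with its reverse complement. Peaks of all 3 lists had 45.5%, 30.5%, 14.5% and 9.42%, and peaks of the N-C1 list alone 46.2%, 28.6%, 15.7% and 9.50%. The 1682 peaks found with N-C1 and full-length Satb1 but not ∆HD stood apart from these, with 63.3%, 20.4%, 11.2% and 5.06%. Across the whole genome the shares were 44.8%, 22.5%, 21.6% and 11.1%, so CTAATAA took a larger and CTATTAA a smaller part of the matches at members than of all matches in hg19. The 20 bp on either side of a match held 70.3% A/T at members (SD 7.59 across matches) and 73.1% at peaks of all 3 lists (SD 8.39), a gap smaller than either SD. Among members with exactly 2 matches, a spacing of 8 to 12 bp between match starts occurred 618 times and one of 13 to 17 bp 415 times. Spacings of 18 to 22 bp occurred 517 times and those of 23 to 27 bp 372 times. Spacings near 20, 30 and 40 bp were 1.24 times as frequent as those midway between, compared with a ratio of 1.48 at peaks of all 3 lists and 1.51 at peaks of the N-C1 list alone.

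The hexamer TAATTA, which reads the same on both strands and contains the letters TAAT, was present in 49.3% of members (95% interval 48.6 to 50). It was present in 50.7% of all N-C1 peaks, 55.1% of peaks in all 3 lists (54.4 to 55.7), 46.7% of peaks in the N-C1 list alone (46.0 to 47.4) and 16.3% of genome windows of 400 bp. It can overlap a consensus match. The 1682 peaks found with full-length Satb1 and N-C1 but not with ∆HD held it at 64.3% (61.9 to 66.6).

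A minority of 1417 members (6.45%) had no consensus match. In their central 100 bp, the hexamers most frequent relative to a flank starting 1000 bp away resembled it. ATTAAT occurred 74.0 times per 10000 positions in the center and 5.79 times in the flank, CATTAG 48.9 and 5.70 times, and ACTAAT 59.5 and 7.18 times. These were chosen for their frequencies and overlap one another. Members without a match had a mean ∆HD fold enrichment of 6.46 (SE 0.0724), close to the 6.44 (SE 0.0425) of members with 4. Members with 1, 2 and 3 matches were lower, at 6.14 (SE 0.0226), 6.17 (SE 0.0181) and 6.25 (SE 0.0227).

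Some members shared longer sequence. Of the 6 most common 16-base words of distinct sequence in their central 200 bp, picked after their counts were seen, 3 are printed. Words 1 and 3 hold a consensus match, in capitals, within a repeated context. Word 2 is shown as the most common one with no complete match inside its 16 bases. It begins with TATTAG, so the base before it can complete a match. The SLCO4C1 site printed above holds word 2 on the opposite strand, and there a match is completed in this way.
word 1: tatgtctTTATTAGca
word 2: tattaggttggtgcaa
word 3: acagaaCTAATAGgat

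Word 1 was found in 137 members (0.623%, 95% interval 0.523 to 0.736) on 23 chromosomes, and in 8 windows of the same length starting 1000 bp away. It was in 0.489% of peaks in all 3 lists (0.397 to 0.596) and in 0.663% of peaks in the N-C1 list alone (0.553 to 0.789). The genome held 4413 copies, of which 9.31% fell in an N-C1 peak and 3.51% in a member. Members with word 1 held 64.5% A/T (SD 4.25), less than members as a whole, and 9.49% of them were in the ICRF-193 list (5.15 to 15.7). Word 2 was found in 73 members, and 38.4% of these were in the ICRF-193 list (27.2 to 50.5). Word 3 was found in 56 members (0.255%, 0.192 to 0.331) and in 0.120% of peaks in all 3 lists (0.0768 to 0.178), and 5.36% of these members were in the ICRF-193 list (1.12 to 14.9). Repeat annotation was not used here.

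The drug lists are separate precipitations of full-length Satb1 and took no part in the rule. Peaks of all 3 lists were chosen for a call with the same protein and members for the lack of one. The rule itself therefore favours a higher recovery of peaks in all 3 lists. Of the members, 15.7% were in the camptothecin list (3457 sites, 95% interval 15.2 to 16.2) and 37.7% in the ICRF-193 list (8289 sites, 37.1 to 38.3), beside 35.4% and 50% of all N-C1 peaks. Full-length Satb1 was thus called at 8908 members (40.5%) in at least 1 treated sample, beside 51.8% of all N-C1 peaks, though by the rule at none of them in the untreated list. Peaks of all 3 lists were recovered at 81.9% and 92.9%, and peaks of the N-C1 list alone at 5.34% and 15.3%. Among members, 2838 were in both drug lists, 5451 in the ICRF-193 list only, 619 in the camptothecin list only and 13077 (59.5%) in neither, beside 48.2% of all N-C1 peaks in neither. The ICRF-193 list is the longer, with 37350 peaks against 24475, and its depth relative to the others is unknown, so the part of list length in these shares was not tested.

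The overlap can also be read from the drug lists. Members have no full-length peak by the rule, so their share is by construction higher among drug peaks without one. Of 37350 ICRF-193 peaks, 22.2% lay on members, and of the 16188 without a full-length peak, 50.9% did. Of 24475 camptothecin peaks, 14.1% lay on members, and of the 5844 without a full-length peak, 58.8% did. Only 43 ICRF-193 peaks and 24 camptothecin peaks spanned both a member and a full-length peak. The median fold enrichment at recovered members was 5.44 with ICRF-193, against 9.48 at peaks of that list on a full-length site and 5.19 at its peaks on neither. With camptothecin the medians were 5.01, 7.64 and 5.01.

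Recovery rose with N-C1 fold enrichment. From the lowest to the highest quartile of all N-C1 peaks, the share of members in the camptothecin list was 9.16% (95% interval 8.43 to 9.93), 11.8%, 20.1% and 39.9% (37.1 to 42.7). In the ICRF-193 list it was 24.3% (23.2 to 25.4), 29.8%, 48.6% and 73.0% (70.4 to 75.5). Within each quartile, members stood below peaks of all 3 lists, an order that the rule favours. The quartiles do not match the classes fully in strength, since the highest runs from 8.82 to 84.1 and members end at 16.6. In the third quartile, with fold enrichments from 6.0 to 8.82, 64.5% of peaks in all 3 lists were in the camptothecin list (63.1 to 65.8) and 84.7% in the ICRF-193 list (83.7 to 85.7). Peaks of the N-C1 list alone were lower there, at 11.4% (10.2 to 12.8) and 32.2% (30.3 to 34.1). In the highest quartile only 67 peaks were in the N-C1 list alone, and their camptothecin interval (23.2 to 46.9) overlapped that of members.

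**Figure D3:**
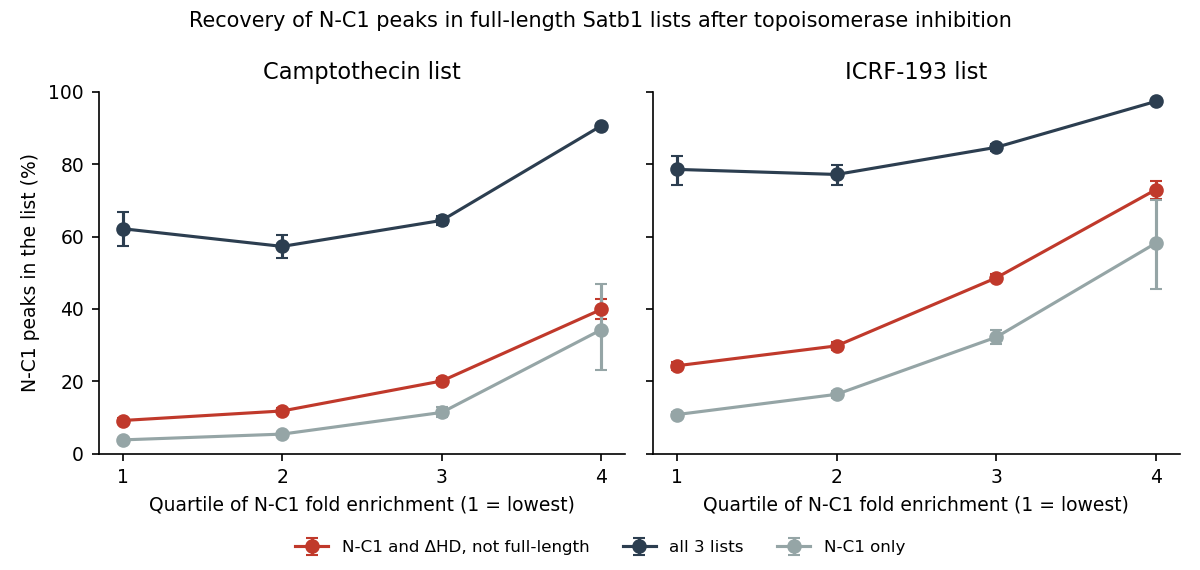
Share of N-C1 peaks (%) found in the camptothecin list (left) and the ICRF-193 list (right) of full-length Satb1, by quartile of N-C1 fold enrichment over all N-C1 peaks, with bars for 95% Clopper-Pearson intervals. Sites of N-C1 and ∆HD but not full-length Satb1 rise from 9.16 to 39.9% and from 24.3 to 73.0%. They lie below peaks of all 3 lists, which were chosen for a full-length call, at every quartile.

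The A/T content of the site also moved with recovery. Of members under 65% A/T, 11.5% were in the ICRF-193 list (95% interval 10.3 to 12.8), against 24.8% from 65 to 70%, 44.9% from 70 to 75% and 68.7% (66.9 to 70.4) at 75% or more. In the camptothecin list the shares were 3.56% (2.87 to 4.37), 8.46%, 18.3% and 35.8% (34.0 to 37.6). The same order was seen in both drug lists within every quartile of N-C1 fold enrichment. In the lowest quartile, the ICRF-193 share went from 6.27% (4.72 to 8.14) to 58.6% (55.1 to 62.1), and in the highest from 31.3% (21.6 to 42.4) to 94.0% (88.5 to 97.4). Peaks of all 3 lists showed a gradient too, from 73.4% (71.2 to 75.5) to 99.3% (99.0 to 99.5). Members in both drug lists held 73.0% A/T (SD 3.42), those in the ICRF-193 list only 71.5% (SD 3.67), and those in neither 68.8% (SD 4.26).

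**Figure D4:**
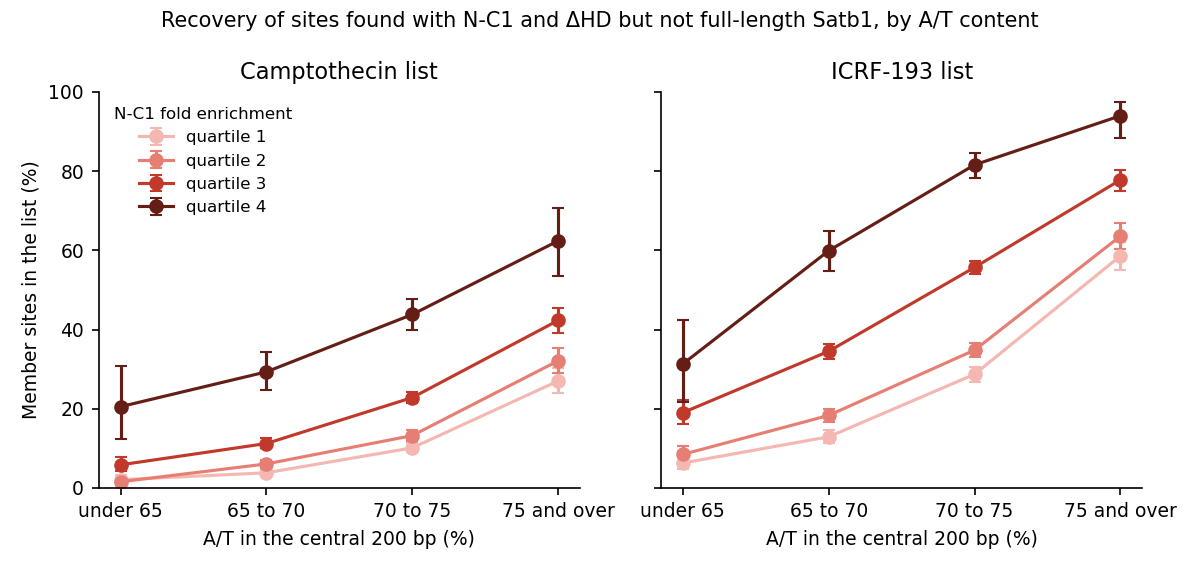
Share of sites found with N-C1 and ∆HD but not full-length Satb1 (%) that were in the camptothecin list (left) or the ICRF-193 list (right), by A/T content of the central 200 bp (%) and quartile of N-C1 fold enrichment, with 95% Clopper-Pearson intervals. In the ICRF-193 panel the lowest quartile climbs from 6.27 to 58.6% and the highest from 31.3 to 94.0%.

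The number of consensus matches moved with recovery as well. The ICRF-193 share was 30.4% (28 to 32.9) at members without a match, 36.7% with 2, 48.6% with 4 and 59.1% (53.1 to 64.9) with 5. The camptothecin share went from 12.1% (10.5 to 14.0) to 30.2% (24.9 to 36.0) over the same range. Other N-C1 peaks showed a rise too. In the N-C1 list alone the ICRF-193 share was 12.6% without a match, 11.5% with 1 and 38.9% (30.3 to 48.0) with 5. In all 3 lists it was 91.6%, 88.8% and 98.0% (97.0 to 98.8). Among the members with 70 to 75% A/T alone, the ICRF-193 share was 37.7% (33.7 to 41.9) without a match and 66.2% (57.9 to 73.8) with 5 or more. Match number and A/T content were thus each associated with recovery, while the match number had little relation to N-C1 fold enrichment at the same sites.

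Of the members in both drug lists, 2 with large ICRF-193 fold enrichments lay close to full-length peaks. One site lay 217 bp from a full-length peak on chromosome 8, with TRPS1 as the nearest start (chr8:115776483-115776860). Its fold enrichment was 18.4 with camptothecin, 26.8 with ICRF-193 and 6.39 with N-C1. A site with KCNV1 as the nearest start had 14.8 and 24.5 and lay 187 bp from a full-length peak (chr8:112288820-112289212). The drug values are those of drug peaks that overlapped these sites, and where the summits of those peaks lay was not examined. Leaving out all members within 1 kb of a full-length peak changed the shares in the drug lists to 15.6% and 37.5%.

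Nearly all members were outside open chromatin. An ATAC-seq peak of native cells overlapped 3.70% of members (814 sites, 95% interval 3.46 to 3.96), beside 3.73% of all N-C1 peaks. In cells expressing Satb1 the share was 4.18% (918 sites, 3.91 to 4.45), beside 4.35% of all N-C1 peaks, and the ATAC-seq lists covered 5.32% and 8.26% of the genome. Peaks of all 3 lists were overlapped at 4.05% (3.78 to 4.33) and 5.25% (4.94 to 5.56). These are wider, with a mean of 472 bp against 336 bp at members. With the summit required inside the ATAC-seq peak the order in native cells turned, to 2.15% of members and 1.82% of peaks in all 3 lists, while in cells expressing Satb1 the shares were 2.55% and 2.58%. With ATAC-seq peaks of −log10 q of at least 5, the native shares were 2.91% and 2.83%. In both ATAC-seq lists together, 644 members were accessible, 170 only in native cells, 274 only in cells expressing Satb1 and 20897 (95.1%) in neither. The list from cells expressing Satb1 is the longer, with 206170 peaks against 175989, and the part of its length in the higher share was not tested.

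Accessible members were less A/T rich on average than the others, by less than 1 SD. Those accessible in both lists held 68.0% A/T (SD 4.92) and 1.85 matches (SD 1.05), and 8.85% of them had no match (95% interval 6.77 to 11.3), compared with 70.2% A/T (SD 4.27), 2.03 matches (SD 1.07) and 6.30% (5.97 to 6.64) at members accessible in neither. Their nearest protein-coding start was a median of 47.7 kb away, against 112 kb. They lay within 5 kb of a start in 12.1% of cases (9.69 to 14.9), against 5.22% (4.92 to 5.53). The share in the native list fell from 6.52% (5.58 to 7.56) of members under 65% A/T to 1.88% (1.40 to 2.45) of those at 75% or more. This is the opposite order to recovery in the drug lists. It was not particular to members, with 8.87% and 2.46% at peaks of all 3 lists and 7.25% and 1.45% at peaks of the N-C1 list alone. The native share was 4.10% at members in neither drug list and 2.64% at members in both.

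The accessible members with the largest N-C1 fold enrichments included the site printed above, 79.4 kb from DTHD1, which had a fold enrichment of 11.8 with N-C1, 6.07 in native ATAC-seq and 4.22 in cells expressing Satb1. A site 129 kb from SLC25A46, a mitochondrial carrier family gene, had 11.2 with N-C1 (chr5:110219521-110219909). A site in an intron of INSIG2, which acts in sterol sensing, had 11.1 with N-C1, 5.46 in native cells and 5.21 in cells expressing Satb1 (chr2:118855034-118855438). All 3 were also in the ICRF-193 list, but they were picked for their N-C1 fold enrichment, and 73.0% of members in its top quartile were there. Of all members accessible in both ATAC-seq lists, 32.0% (28.4 to 35.7) were in the ICRF-193 list, against 38.1% (37.4 to 38.7) of those accessible in neither.

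By annotation of the summit, 59.1% of members were intergenic (95% interval 58.4 to 59.7), 39.0% intronic (38.3 to 39.6) and 1.46% exonic (1.31 to 1.63). Promoters, taken as 1000 bp upstream to 100 bp downstream of a protein-coding start, held 109 members, or 0.496% (0.407 to 0.598), beside 0.544% of all N-C1 peaks. The share was 2.13% with 2000 bp on either side of a start and 2.66% with starts of every transcript type. The classes of N-C1 peaks were alike in this respect, with 60.5% (59.8 to 61.2) of peaks in all 3 lists and 59.3% (58.6 to 60) of those in the N-C1 list alone between genes. The nearest protein-coding start was over 100 kb away at 51.5% of members (50.9 to 52.2).

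At promoters, 12.8% of the 109 members were accessible in native cells (95% interval 7.20 to 20.6), against 3.09% (2.80 to 3.41) of intergenic members, and 28.4% were in the ICRF-193 list (20.2 to 37.9), against 38.7% (37.8 to 39.5). The leading promoter member lay 975 bp from a start of SKA2, a spindle and kinetochore gene, with a fold enrichment of 11.6 with N-C1 and 4.99 with ∆HD, and it was in both drug lists. The promoter of VSTM2A had 10.7 and 9.72 (chr7:54608846-54609239). A start of ELMO1, which acts upstream of Rac, had a site 311 bp away with 10.4 and 6.32, which was accessible in native cells and in neither drug list (chr7:37256435-37256829). A start of FRS2, an adaptor of FGF receptors (chr12:69950804-69951148), had an N-C1 fold enrichment of 9.34, and the site was in the ICRF-193 list.

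The density of members varied widely between chromosomes, around 7.10 per Mb overall. Chromosome Y, which held 12 members, is left out of the comparisons of chromosomes. Among the 23 others the density was highest on chromosomes 4 (10.3 per Mb), 5 (10.0) and 1 (9.46) and lowest on chromosomes 22 (1.56) and 19 (1.78). Over 23 chromosomes, members per Mb had a Spearman correlation of 0.806 with A/T content and -0.637 with protein-coding genes per Mb. Both describe chromosomes that also differ in size. Peaks of all 3 lists were spread in a like manner, at 8.88 per Mb on chromosome 4 and 1.93 on chromosome 22. As a share of the N-C1 peaks of each of these 23 chromosomes, members ranged from 31.2% on chromosome 8 (95% interval 29.8 to 32.7) to 37.2% on chromosomes 7 (35.5 to 38.8) and X (35.4 to 39.0). Within 10 kb of another member lay 22.4% of members (21.8 to 22.9), compared with 21.0% (20.4 to 21.5) of peaks in all 3 lists. The longest run, with gaps of at most 10 kb, held 8 members between genes on chromosome 8 (chr8:108580979-108599557).

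**Figure D5:**
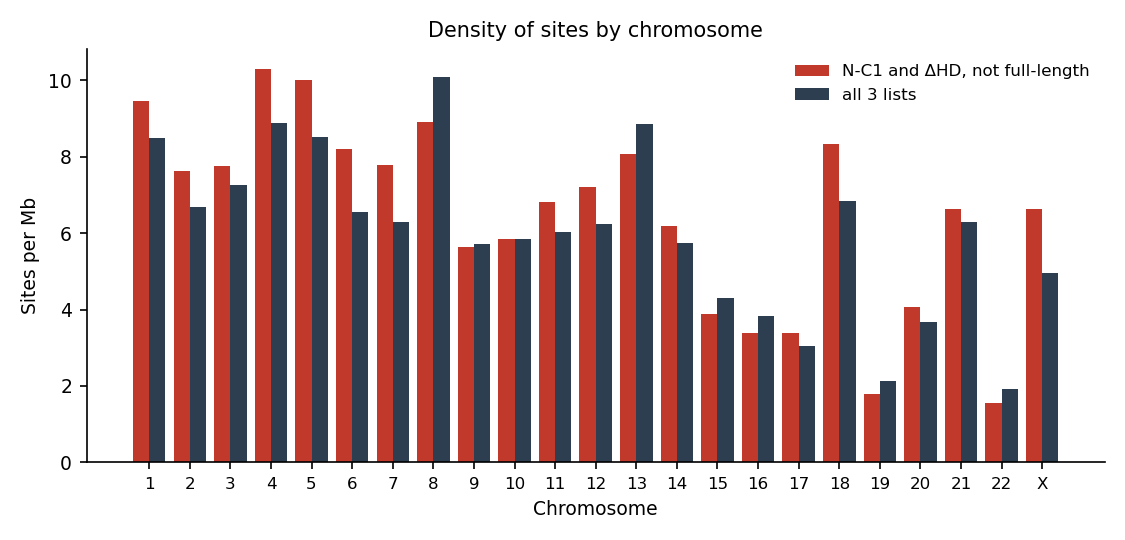
Sites per Mb (bars from 0) by chromosome, without Y, for sites found with N-C1 and ∆HD but not full-length Satb1 and for peaks of all 3 lists. Of the 23 chromosomes shown, chromosome 4 has the highest density of the first class, 10.3 per Mb, and chromosome 22 the lowest, 1.56 per Mb.

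Of 19834 protein-coding genes, 3763 (19.0%) had a member in the gene body, and 3681 (18.6%) had a peak of all 3 lists. The named genes with the most members were very long, and most encode proteins of neurons or cell adhesion. CSMD3 held 48 members (3.95 per 100 kb), 46 peaks of all 3 lists and 64 of the N-C1 list alone. The receptor phosphatase gene PTPRD held 41 members and 24 peaks of all 3 lists. The photoreceptor gene EYS had 34 members and 32 peaks of all 3 lists, and the protocadherin gene PCDH15 34 and 31. CNTNAP2, a neurexin family gene, had 33 members and 15 peaks of all 3 lists, while LRP1B, a lipoprotein receptor family gene, had 32 and 33. CNTN5, a contactin gene, had 28 members and 20 peaks of all 3 lists, and the dystrophin gene DMD 27 and 19.

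By density, among genes of at least 50 kb, the complement regulator gene CD55 came first with 5 members in 51.7 kb (9.67 per 100 kb) and 1 peak of all 3 lists. SLC5A12, a monocarboxylate transporter gene, held 4 members in 56.3 kb, and TRDMT1, an RNA methyltransferase gene, 4 in 64.3 kb, and neither had a full-length peak in its body. ANKRD36 followed with 9 members in 151 kb and GPATCH2 with 12 in 204 kb. In all, 1540 genes had members and no full-length peak in the body. UMAD1 had the most of these, 7, followed by 4 genes with 5 each: CTTNBP2, PAN3, PITPNC1 and SH3D19. These 5 genes were chosen after their values were seen.

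Lists of genes were read with 10 kb on either side. Of all protein-coding genes, 23.6% had a member (95% interval 23.0 to 24.2), at 6.71 members per Mb, beside 5.98 peaks of all 3 lists per Mb. Of 15 genes of the epithelial to mesenchymal transition, 6 had a member, at 6.74 per Mb, and these included ZEB2 and TCF4 with 4 each, both transcription factors that bind E-boxes, and CDH2 with 1. Of 14 genes of basal mammary identity, 5 had a member, at 5.40 per Mb, among them TP63 and LAMA3 with 3 each. Of 12 luminal genes, 3 had a member, at 6.65 per Mb. The estrogen receptor gene ESR1 had 5, of which 4 were in the ICRF-193 list, where 37.7% of all members were. Of the genes named before it, CDH2 had its 1 member there, TCF4 1 of 4, TP63 1 of 3, LAMA3 0 of 3, and ZEB2 1 of the 3 in its body. Of 14 ERBB receptor and ligand genes, 7 had a member, at 10.3 per Mb, against 10.5 for peaks of all 3 lists. ERBB4 alone held 25 of their 48 members, beside 24 peaks of all 3 lists.

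Of 19 classical cadherin genes, 11 had a member, at 9.34 per Mb. Peaks of all 3 lists were found at 14 of the 19, at 8.89 per Mb. CDH18 held 20 members, of which 15 were in the ICRF-193 list, where 37.7% of all members were. CDH12 held 14, and 3 of the 13 in its body were in that list. CDH13 held 6, and 1 of the 5 in its body was in that list. All 23 giant neuronal and fragile-site genes that were found had a member, at 14.0 per Mb against 11.1 for peaks of all 3 lists, and their median length was 1504 kb, against 25.3 kb for all genes. Of 7 SATB and CUT homeobox genes, 2 had a member: SATB1 itself held 2 and CUX2 held 1. The 39 HOX genes shared 1 member, near HOXA3, HOXA4 and HOXA5. Ribosomal protein genes had the lowest share, 4 of 92 genes at 1.45 per Mb, the same density as for peaks of all 3 lists. Olfactory receptor genes had a member at 88 of 391 (9.42 per Mb, against 10.4 for all 3 lists), and ZNF genes at 88 of 512 (4.70 per Mb). Gene length and A/T content differ between these lists, and their part in the counts was not tested.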

How the data were processed

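Of 20 samples, 7 lists from MCF10A were used: 3 constructs, 2 drug treatments and 2 ATAC-seq conditions. The authors trimmed reads with cutadapt, aligned them to hg19 with Bowtie2 and called peaks with MACS2, with input DNA as control for ChIP-seq. Versions of Bowtie2 and MACS2 are not given in the sources used here, nor whether duplicate precipitations were pooled. The deposited fold enrichment is the authors' ratio over local background, and significance is deposited by them as −log10 p-values and −log10 q-values from MACS2. The smallest −log10 q in the N-C1 list was 1.32. A range of reads per ChIP library is stated for the study as a whole, but the depth behind each list is unknown, and peak number changes with depth.

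Overlaps needed 1 bp. Sequence came from GRCh37 and genes from GENCODE 44 lifted to it. A list gene was counted with 10 kb on either side. PARK2 was not matched. Named sites were the leading members by fold enrichment in N-C1 or both lists, match number, promoter position, ICRF-193 recovery, accessibility and distance to the edges of the rule, and named genes those with the most members, the highest density or the most members in a list. Some of these are not reported here. Members and lists were chosen with earlier results of these data known. The A/T bins and the 16-base words were chosen after values were seen. Shares carry exact 95% intervals. The functions were tested on simulated data. Tools were Python 3.11.15, numpy 2.4.6, pandas 2.3.3, scipy 1.17.1, matplotlib 3.10.9, bedtools 2.31.1 and samtools 1.23.1.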

Additional observations from a re-analysis of the deposited data

How the results depend on the processing

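The number of sites, their recovery, accessibility, consensus, A/T and promoter values were recomputed under other choices, and the remaining results were not. Of 52 recomputed values, 32 stayed within the 95% interval of the share, 1 SD across members or 1.5 times the count. The range of 1 SD, used for means, is wide. A change from 2.03 to 1.36 mean matches in a 150 bp window stayed within it. Requiring a fold enrichment of at least 5 in both lists left 13060 sites, with 20% in the camptothecin list, 46.2% in the ICRF-193 list, 3.28% accessible in native cells, 3.44% accessible in cells expressing Satb1 and 94.2% with the consensus. Recovery by a reciprocal overlap of 50% gave 14.8% and 36.2%. Reciprocal overlap between the constructs moved the consensus share to 93.9%. Counted as ∆HD peaks, 4.19% were accessible in native cells and 4.61% in cells expressing Satb1. With the summit inside an ATAC-seq peak these shares were 2.15% and 2.55%, and with ATAC-seq peaks of −log10 q of at least 5 they were 2.91% and 3.22%. A 150 bp window held the consensus at 81.7% of sites. A consensus limited to the forms CTAATAA and CTAATAG, each with its reverse complement, was found at 60%, with a mean of 0.797 matches. The form CTATTAA was left out of this count. Promoters of 2000 bp on either side held 2.13%, and starts of every transcript type 2.66%. The consensus, promoter and accessibility values thus rest on these definitions. No paired analysis was possible because each condition had 1 list. With 1 list per condition, intervals cover counting error only, and depth limits which weak sites each list holds.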
